A study of Bos taurus
Mus musculus and Bos taurus and Mus musculus with 5 samples.

Results

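Integrins, cadherins and claudins are the surface proteins through which cells hold on to matrix and to each other, and their transcripts were followed here from both genomes of fused cells. The genes were taken by name from the bovine and the mouse table: integrin alpha and beta chains, cadherins, desmogleins and desmocollins, claudins and claudin domain genes, the tight junction scaffolds of the TJP group, EPCAM and CD9. This gave 68 of 13923 bovine genes and 98 of 24543 mouse genes, 166 of 38466 in all. Names of integrin-binding proteins, cadherin-related genes and CDH11 were left out. Of these genes 49 bovine and 53 mouse ones had reads in the 4 libraries of their comparison, and 19 bovine and 45 mouse ones had none.

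The cells were heterokaryons, which hold the nuclei of a bovine and a mouse cell in a shared cytoplasm. Bovine fetal fibroblasts (bFF) from 1 male fetus at about day 60 of gestation, of unknown genetic background, were co-cultured for 4 h with C57BL mouse embryonic stem cells (mESC) of 1 commercial line and fused with polyethylene glycol and DMSO for 2 min. Heterokaryons were then kept at 37 °C in medium with 15% fetal bovine serum and 1500 U/ml ESGRO, the stem cell cytokine supplement, and were collected at 24, 48 and 72 h. Unfused bFF, grown at 38.5 °C with 10% serum and no ESGRO, and unfused mESC were the controls. The mESC control was grown at 37 °C on gamma-irradiated mouse embryonic fibroblasts, in the serum and ESGRO of the heterokaryons plus 1 µM of the MEK inhibitor PD0325901 and 3 µM of the GSK3 inhibitor CHIR99021, neither of which was in the medium after fusion. All cells shared gentamycin in the medium. Each of the 5 groups is 1 library of 200 cells, isolated by ImageStream and FACS and amplified from polyadenylated RNA with 14 cycles, so no group has a replicate, and fusion, medium, co-culture and, for bFF, temperature cannot be told apart.

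Integrins pair an alpha with a beta chain to bind matrix proteins such as fibronectin and laminin, and they link to actin through talin, kindlin and parvin. Classical cadherins join like cells through catenins, desmosomal cadherins anchor keratin filaments, and claudins seal the tight junctions of epithelia with the help of ZO scaffolds. Fibroblasts are known for matrix integrins and N-cadherin, and embryonic stem cells for E-cadherin, EPCAM and epithelial claudins. Exchange of E-cadherin for N-cadherin, or the reverse, accompanies passage between epithelial and mesenchymal states, and the reverse passage is known as an early step when mouse fibroblasts are reprogrammed.

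Depth came to 2634269 bovine reads in bFF and to 982769, 1331989 and 1541793 in the heterokaryons in order of time. Mouse depth came to 3446461 reads in mESC and to 2427089, 1731084 and 1836299 in the heterokaryons. Levels are given as RPM, reads per 1000000 reads of the species in a library, and intervals are 95% intervals that cover counting error only, since amplified reads are not independent molecules. The value 1 does not occur in either table, so a listed 0 may stand for a single read. Differences over the 3 heterokaryon libraries were tested with edgeR's quasi-likelihood test, adjusted by Benjamini-Hochberg over all tested genes of the species with a threshold of 0.05. That p measures the spread between libraries of different times and assumes that the lone control varies like them. In libraries of pooled cells, fewer cells of a type and less RNA per cell cannot be told apart. Bovine fibroblast markers were detected for 10 of 10 listed genes in bFF and in every heterokaryon library, and stem cell markers for 10 of 10 in mESC and in every heterokaryon library.

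In bovine transcripts, CD9, the desmoglein DSG2 and the integrin chain ITGA5 rose after fusion, and the cadherins CDH6 and CDH13 and the claudin CLDN1 fell. These 6 were among the 23 bovine members that reached 10 CPM (RPM after TMM scaling) in at least 1 library and could be tested. The 3 that rose were 13.0% of the tested members, against 4.37% of all 7376 tested bovine genes, and the 3 that fell were 13.0%, against 4.77%. The median log2 fold change of the tested members was -0.07, against -0.03 for all tested genes. Of the 23, 12 reached the level in bFF and in heterokaryons, 8 in heterokaryons alone, DSG2 among them, and 3 in bFF alone, CDH6 and CLDN1 among them. The other 45 stayed at or below 7.97 RPM in every library. DSG2, CDH6 and CLDN1 entered the test through 1 side alone, so a gap between the groups was built into their choice. The shares are therefore no support for a change of the group. The counts by family and list below stand beside the same 4.37% and 4.77% of all genes. Each rests on few genes and is no result about its family.

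**Figure D1:**
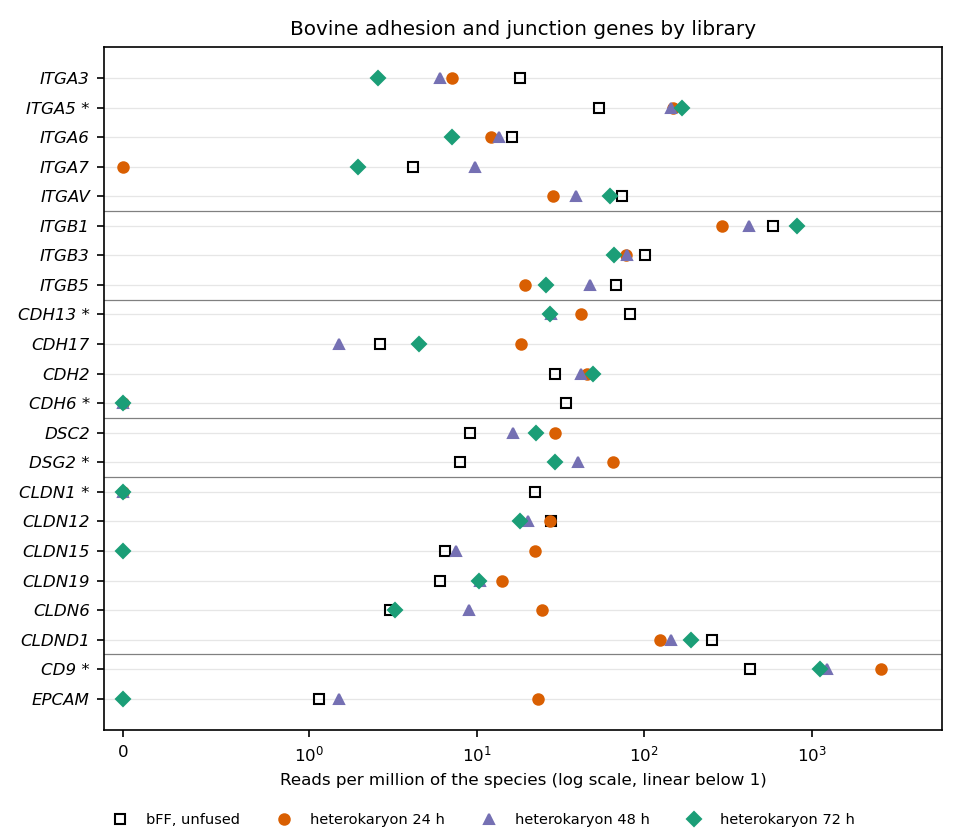
Level of 22 tested bovine members in RPM (log axis, linear below 1), with 1 symbol per library and an asterisk on genes that passed the edgeR test. The 3 heterokaryon symbols lie right of the open bFF square for CD9, DSG2 and ITGA5 and left of it for CDH13, and they lie at 0 for CDH6 and CLDN1.

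Among the bovine integrin alpha chains 1 of 5 tested genes rose and none fell. ITGA5, which pairs with ITGB1 as the fibronectin receptor (chromosome 5, plus strand, start at 25778012 in bosTau8), had 141 reads in bFF and 147, 194 and 260 at 24, 48 and 72 h, or 53.5 RPM and 149.6, 145.6 and 168.6 RPM. All 3 heterokaryon libraries were above bFF and close to each other. The ratio to bFF was 2.79 at 24 h (2.20 to 3.55), at 48 h it was 2.72 (2.18 to 3.4), and at 72 h it was 3.15 (2.56 to 3.90), and the log2 fold change was 1.64 ± 0.34 (SE, 3 libraries against 1; edgeR adjusted p = 0.0112).

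The other matrix-binding alpha chains did not pass. ITGAV, the alpha chain of vitronectin receptors, had 74.0 RPM in bFF and 28.5, 39.0 and 62.9 RPM in heterokaryons, lowest at 24 h and near bFF at 72 h (log2 fold change -0.62 ± 0.43; edgeR adjusted p = 0.419). ITGA3 and ITGA6, both laminin-binding chains, had 18.2 and 16.3 RPM in bFF. ITGA3 had 7.12, 6.01 and 2.59 RPM in heterokaryons, all below bFF, and at 72 h its 4 reads put it 7.02-fold under bFF (2.57 to 26.8), but it missed the test (edgeR adjusted p = 0.188). ITGA6 had 12.2, 13.5 and 7.14 RPM (edgeR adjusted p = 0.683), and the muscle laminin receptor chain ITGA7 had 11 reads in bFF and 0, 13 and 3 in heterokaryons (edgeR adjusted p = 0.982). ITGA2, a collagen-binding chain, was below the tested level with 0 reads in bFF and 2, 10 and 2 reads in heterokaryons.

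No bovine beta chain passed among 3 tested. ITGB1, the partner of most alpha chains, had 1549 reads in bFF and 288, 562 and 1259 in heterokaryons, or 588 RPM and 293, 421.9 and 816.6 RPM. The 24 and 48 h libraries were below bFF and the 72 h library was above it, so over the 3 libraries the log2 fold change was -0.07 ± 0.48 (edgeR adjusted p = 0.952). From 24 to 72 h ITGB1 was 2.79-fold higher (2.45 to 3.18), a comparison of 1 library with 1 that carries no test. ITGB3 and ITGB5, which are among the beta chains that can pair with ITGAV, lay below bFF at each time. ITGB3 had 101.4 RPM in bFF and 78.4, 78.8 and 66.2 RPM in heterokaryons (edgeR adjusted p = 0.555). ITGB5 had 67.95 RPM and 19.3, 47.3 and 25.9 RPM (log2 fold change -1.01 ± 0.45; edgeR adjusted p = 0.194). ITGB4, the hemidesmosome chain that pairs with ITGA6, had 0 reads in bFF and 5, 3 and 5 in heterokaryons, too few to test. Summed over the beta chains, the level was 762 RPM in bFF and 399.9, 556 and 913 RPM at the 3 times, a course set by ITGB1, while the alpha chains summed to 168 RPM and 207, 224 and 245 RPM.

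The cytoplasmic and matrix partners of integrins are given from lists that were not limited to genes that moved. Of 15 tested bovine adhesion partners 1 rose and none fell. This was PARVB, a parvin that links integrin-bound ILK to actin, with 41 reads in bFF and 144, 141 and 171 in heterokaryons (log2 fold change 3.05 ± 0.40; edgeR adjusted p = 0.000846). Of 9 tested ligands 2 fell and none rose. Beside both lists stand 4.37% of all tested bovine genes that rose and 4.77% that fell. NID1, the basement membrane linker nidogen, had 590 reads in bFF and 68, 59 and 42 in heterokaryons (-2.19 ± 0.37; edgeR adjusted p = 0.00353). SPP1, osteopontin, which binds integrins with ITGAV, had 1264 reads and then 142, 128 and 53 (-2.33 ± 0.45; edgeR adjusted p = 0.00793). The median log2 fold change was 0.26 for the adhesion partners and -0.84 for the ligands, against -0.03 for all tested bovine genes. Each median rests on few genes and is no result about its list.

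Among the 4 tested bovine cadherins outside desmosomes 2 fell and none rose. CDH6, a type II cadherin known from kidney and neural crest (chromosome 20, minus strand, lower coordinate 42271052 in bosTau8), had 90 reads in bFF, or 34.2 RPM, and 0 reads at all 3 times (edgeR adjusted p = 0.00218). Against a floor of 3 reads per library it was at least 11.2-fold lower at 24 h, at least 15.2-fold at 48 h and at least 17.6-fold at 72 h. CDH13, a cadherin anchored to the membrane by lipid (chromosome 18, plus strand, start at 9189535 in bosTau8), had 217 reads in bFF and 41, 37 and 42 in heterokaryons, or 82.4 RPM and 41.7, 27.8 and 27.2 RPM. All 3 libraries were below bFF, 1.98-fold at 24 h (1.41 to 2.83), 2.97-fold at 48 h (2.08 to 4.33) and 3.02-fold at 72 h (2.17 to 4.32). The log2 fold change was -1.27 ± 0.35, close to the threshold (edgeR adjusted p = 0.0426), and it did not pass without the 48 h library (0.140), without the 72 h library (0.0600) or with DESeq2 (0.203). The fibroblast markers moved the same way: 4 of 9 tested fell, COL3A1 and DCN among them with calls lost without the 48 h library (edgeR adjusted p = 0.0702 and 0.186), and the sum of the list was 37470 RPM in bFF and 18430, 20960 and 20580 RPM in heterokaryons, with all 10 detected in each library. The part of this in the CDH6 and CDH13 values was not tested.

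The bovine genes of the classical cadherin exchange did not pass. CDH2, N-cadherin, had 29.2 RPM in bFF and 45.8, 42.0 and 49.3 RPM in heterokaryons, above bFF at each time by 1.44- to 1.69-fold (log2 fold change 0.75 ± 0.39; edgeR adjusted p = 0.265). CDH1, E-cadherin, was below the tested level, with 20 reads in bFF and 6, 3 and 3 in heterokaryons, or 7.59 RPM and 6.11, 2.25 and 1.95 RPM. The ratio of bFF to heterokaryons was 1.24 at 24 h (0.482 to 3.78). At 48 h it was 3.37 (0.9997 to 17.7), and at 72 h it was 3.90 (1.16 to 20.5), so a difference at 24 h was not detectable at this depth. Of the transcription factors known to govern this exchange, 5 were tested and none passed. SNAI2, the repressor Slug and the factor with most reads, had 920 reads in bFF and 473, 1006 and 1303 in heterokaryons (log2 fold change 1.12 ± 0.40; edgeR adjusted p = 0.105), and it passed without the 24 h library (6.57e-06) and with DESeq2 (0.0393). None of 5 tested catenin and desmosome plaque genes passed, and CTNNB1, beta-catenin, had a log2 fold change of 0.06 ± 0.31 (edgeR adjusted p = 0.938). The intestinal cadherin CDH17 had 7 reads in bFF and 18, 2 and 7 in heterokaryons, but mouse reads wrongly listed as bovine could amount to 27.4% of its reads at 24 h and 53.3% at 72 h, and would exceed its 2 reads at 48 h.

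Of the 6 bovine desmosomal cadherins 2 were tested and 1 rose. DSG2, desmoglein 2, the desmoglein of simple epithelia (chromosome 24, minus strand, lower coordinate 25913549 in bosTau8), had 21 reads in bFF and 64, 54 and 45 in heterokaryons, or 7.97 RPM and 65.1, 40.5 and 29.2 RPM. Each heterokaryon library exceeded bFF, most at 24 h, with ratios of 8.17 (4.92 to 14.1), 5.09 (3.02 to 8.87) and 3.66 (2.14 to 6.47). DSG2 rose by a log2 fold change of 2.55 ± 0.54 (edgeR adjusted p = 0.0117), and no bovine DSG2 read was listed in the mESC library. DSC2, desmocollin 2, had 9.11 RPM in bFF and 29.5, 16.5 and 22.7 RPM in heterokaryons, again with every library above bFF, but it did not pass (1.41 ± 0.57; edgeR adjusted p = 0.152). DSC3, a desmocollin of stratified epithelia, had 0 reads in bFF and 5, 3 and 0 in heterokaryons, and the other members of the group had none in these 4 libraries. The epithelial marker list did not move with them: KRT8, KRT18 and KRT19 fell, its sum was 3077 RPM in bFF and 1218, 1139 and 637.6 RPM in heterokaryons, and ESRP1 was at 0 in every library.

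Of 6 tested bovine claudins and claudin domain genes 1 fell and none rose. CLDN1, a sealing claudin of epidermis and other epithelia (chromosome 1, plus strand, start at 77596386 in bosTau8), had 59 reads in bFF, or 22.4 RPM, and 0 at all 3 times (edgeR adjusted p = 0.00987). Against a floor of 3 reads per library it was at least 7.34-, 9.94- and 11.5-fold lower at 24, 48 and 72 h. CLDN6, a claudin of embryonic epithelia, had 8 reads in bFF and 24, 12 and 5 in heterokaryons, or 3.04 RPM and 24.4, 9.01 and 3.24 RPM. It was 8.04-fold above bFF at 24 h (3.50 to 20.7) and back at the bFF level at 72 h, and over the 3 libraries it did not pass (edgeR adjusted p = 0.308). CLDN15, an intestinal pore-forming claudin, had 17 reads in bFF and 22, 10 and 0 in heterokaryons, so its 72 h level was at least 11.5-fold lower than at 24 h.

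The remaining bovine claudins gave no call. CLDND1, a claudin domain protein, had 255.5 RPM in bFF and 125, 144 and 190 RPM in heterokaryons, below bFF at each time (log2 fold change -0.62 ± 0.33; edgeR adjusted p = 0.277). CLDN12 had 27.7 RPM in bFF and 27.5, 20.3 and 18.2 RPM (edgeR adjusted p = 0.788), with 10.4% of its 24 h reads possibly of mouse origin. For CLDN19 that share was 60.4%, 43.0% and 40.0% at the 3 times, beside levels of 6.07 RPM in bFF and 14.2, 10.5 and 10.4 RPM in heterokaryons. CLDN3, a claudin of simple epithelia and of mESC, had 0 reads in bFF and 7, 2 and 0 in heterokaryons, and CLDN7 had 0 and then 0, 4 and 2. None of 3 tested tight junction partners passed, and JAM3, a junctional adhesion molecule, had a log2 fold change of -0.63 ± 0.37 (edgeR adjusted p = 0.339).

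CD9, a tetraspanin that associates with integrins and is a surface marker of mouse embryonic stem cells, rose after fusion in bovine transcripts. CD9 (chromosome 5, minus strand, lower coordinate 104505426 in bosTau8) had 1130 reads in bFF and 2560, 1642 and 1725 in heterokaryons, or 429 RPM and 2605, 1233 and 1119 RPM. Every heterokaryon library was above bFF, the 24 h library most: 6.07-fold (5.66 to 6.52), then 2.87-fold (2.66 to 3.10) and 2.61-fold (2.42 to 2.81). CD9 rose by a log2 fold change of 2.02 ± 0.46 (edgeR adjusted p = 0.0162). Only 3 reads of bovine CD9 were listed in the mESC library, where mouse Cd9 had 6578, so wrongly assigned reads could amount to 0.0825% of bovine CD9 at 24 h, and to 0.0927% at 72 h. Of 6 tested tetraspanins and CD9 partners 1 rose, CD151, which binds laminin-receptor integrins, with 135 reads in bFF and 160, 178 and 158 in heterokaryons (1.46 ± 0.35; edgeR adjusted p = 0.0221). The CD151 call was lost without the 48 h library (edgeR adjusted p = 0.0694).

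EPCAM, the epithelial cell adhesion molecule that stabilises claudins and marks pluripotent cells, had most of its bovine reads at 24 h. EPCAM (chromosome 11, plus strand, start at 29626087 in bosTau8) had 3 reads in bFF and 23, 2 and 0 in heterokaryons, or 1.14 RPM and 23.4, 1.502 and 0 RPM. The 24 h library alone was high, 20.6-fold above bFF (6.21 to 107), and the 72 h level was at least 12.0-fold lower than at 24 h. Over the 3 libraries EPCAM did not pass (edgeR adjusted p = 0.445). No bovine EPCAM read was listed in the mESC library, although mouse Epcam had 698 reads there. Of the stem cell marker list in bovine reads, the sum was 11.8 RPM in bFF and 80.4, 42.8 and 35.7 RPM at the 3 times. POU5F1, the OCT4 gene, had 0 reads in bFF and 23, 3 and 6 in heterokaryons (edgeR adjusted p = 0.0969), while SOX2 and FGF4 were at 0. TDH, threonine dehydrogenase, was the 1 of 2 tested that passed. It gave the largest part of the sum, with 29 reads in bFF and 56, 54 and 49 in heterokaryons. TDH could be mouse reads to 60.4% at 24 h, and its call was lost at 50 CPM and when wrongly assigned reads were subtracted. The endothelial list summed to 5.69 RPM in bFF and 21.4, 4.51 and 1.95 RPM in the same libraries, with 3 of 5 genes at 0 throughout. In the blood list HBA, an alpha globin and the 1 gene tested, had 0 reads in bFF and 90, 89 and 75 in heterokaryons. HBA passed as higher (edgeR adjusted p = 0.000104), with PTPRC and CD34 at 0. The part of these lists in the EPCAM value was not tested.

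By size alone, with a limit of 4-fold on log2(CPM + 1) and no test, the bovine members differed from bFF as follows. At 24 h 5 of 22 members were higher than bFF, CD9, CDH17, CLDN6, DSG2 and EPCAM, or 22.7% against 4.03% of all genes, and 2 were lower, CDH6 and CLDN1, or 9.09% against 2.89%. At 48 h DSG2 alone of 19 was higher, or 5.26% against 2.97%, and CDH6 and CLDN1 were lower, or 10.5% against 3.53%. At 72 h none of 18 was higher, against 3.36% of all genes, and CDH6, CLDN1 and ITGA3 were lower, or 16.7% against 4.16%. Between 24 and 72 h EPCAM, CLDN6 and CLDN15 were lower, or 15.8% of 19 against 2.0%, and none was higher, against 0.955%. Of these genes CD9 alone reached 10 CPM in bFF and in heterokaryons. CDH17, CLDN6, CLDN15, DSG2 and EPCAM entered the comparison through heterokaryons alone, and CDH6, CLDN1 and ITGA3 through bFF alone, so a gap between the groups was built into their choice, and the shares are no support for a change of the group.

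Some bovine members were read on 1 side of the fusion alone. Of 30 members with 0 reads in bFF, 11 had reads in at least 1 heterokaryon library, or 36.7% against 20.9% of all genes with 0 reads there. More than 3 reads in at least 1 library were reached by 5 of them, ITGA2, ITGB4, DSC3, CLDN3 and CLDN7, or 16.7% against 6.54%. In the other direction 5 of 32 members with more than 3 reads in bFF had 0 in all 3 heterokaryon libraries, or 15.6% against 1.92%, CDH6, CDH7, CLDN1, CLDN11 and ITGBL1. The bFF library was deeper than each heterokaryon library, so a low transcript could be missed in the latter more easily. CDH7, CLDN11 and ITGBL1 had 4, 5 and 6 reads in bFF, too few to show a fall at 24 h against the floor of 3 reads. Members were picked here for reads on 1 side, so these shares are no support for a change of the group.

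**Figure D2:**
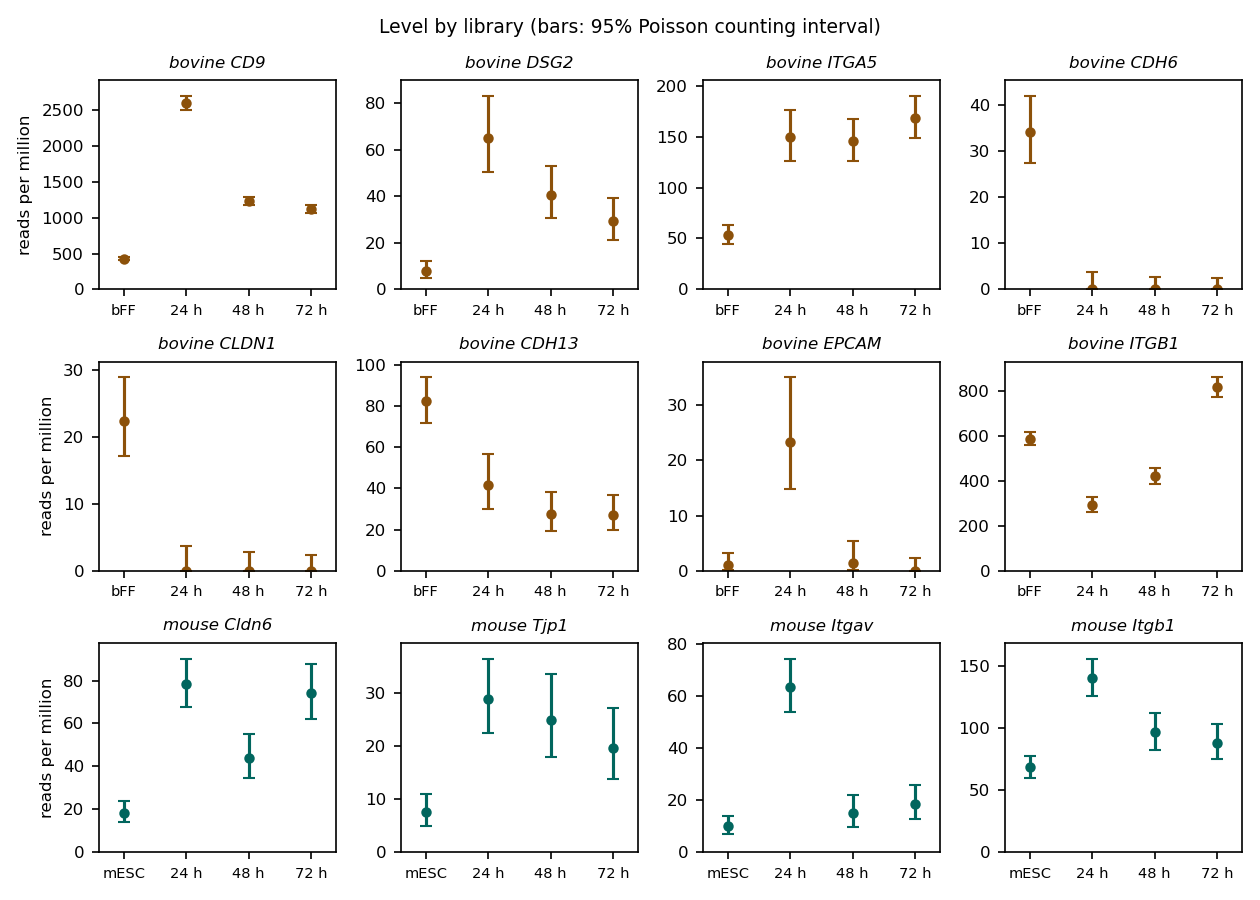
Level in RPM by library for 8 bovine and 4 mouse members, with 95% Poisson intervals as bars and 1 library per point. Bovine CD9, DSG2 and EPCAM were highest at 24 h, ITGB1 was lowest at 24 h with 293 RPM and highest at 72 h with 816.6 RPM, and mouse Itgav stood high at 24 h alone with 63.5 RPM.

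In mouse transcripts 1 member passed, the claudin Cldn6, which rose, and none fell. The test covered 19 of the 98 mouse members. The 1 that rose was 5.26% of these, against 0.576% of all 8857 tested mouse genes, and the 0 that fell stand against 0.406%. An unadjusted p under 0.05 was found for 4 mouse members, or 21.1%, against 16.4% of all tested mouse genes. The median log2 fold change of the tested members was 0.36, against -0.09 for all tested mouse genes. Of the 19, 13 reached the tested level in mESC and in heterokaryons and 6 in heterokaryons alone, Cldn1, Cldn12, Cldn3, Itga3, Tjp1 and Tjp3. For these 6 a higher level in heterokaryons was built into their choice. The shares and the median are therefore no support for a change of the group.

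**Figure D3:**
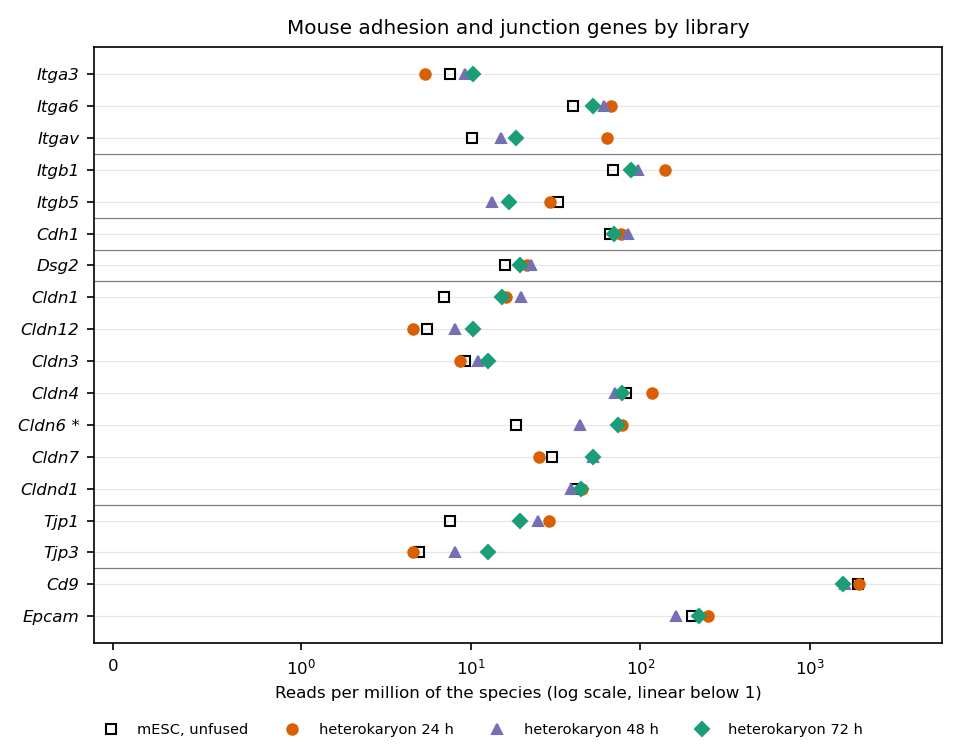
Level of 18 tested mouse members in RPM (log axis, linear below 1), with 1 symbol per library and an asterisk on the gene that passed the edgeR test. For Cldn6 the heterokaryon symbols lie right of the open mESC square, from 43.9 to 78.3 RPM against 18.6 RPM, and for Cd9, Epcam and Cdh1 the 4 symbols lie close together.

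Cldn6 (chromosome 17, plus strand, start at 23679365 in mm10) had 64 reads in mESC and 190, 76 and 136 in heterokaryons, or 18.6 RPM and 78.3, 43.9 and 74.1 RPM. All 3 heterokaryon libraries were above mESC, by 4.22-fold (3.16 to 5.69), 2.36-fold (1.67 to 3.35) and 3.99-fold (2.94 to 5.46). The log2 fold change was 1.77 ± 0.39, close to the threshold (edgeR adjusted p = 0.0440). It did not pass when wrongly assigned bovine reads, at most 1.33% of its reads in a library, were subtracted from all genes (0.0524). Of the 5 tested mouse epithelial markers 2 were higher, Krt18 and Krt19, and the Krt19 call was lost with DESeq2 and at 50 CPM. The list summed to 369 RPM in mESC and 769, 529 and 563 RPM in heterokaryons. Its other tested genes did not pass and went both ways, with Krt8 at 2.09 and others at -0.18 and -0.30 (edgeR adjusted p = 0.0655, 0.730 and 0.804). Grhl2, a defining factor of that list, was at 0 in every heterokaryon library, and the part of these markers in the Cldn6 value was not tested.

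The other mouse claudins gave no call among 7 tested with Cldn6. Cldn4 had 82.4 RPM in mESC and 116.6, 71.1 and 77.3 RPM in heterokaryons, high at 24 h and otherwise near mESC (edgeR adjusted p = 0.931). Cldn7 had 30.2 RPM and 25.1, 52.6 and 52.3 RPM (edgeR adjusted p = 0.589). Cldn1 had 6.96 RPM and 16.1, 19.6 and 15.2 RPM, above mESC at each time (1.23 ± 0.52; edgeR adjusted p = 0.254), but 23 of its reads were listed in the bFF library, and bovine reads could amount to 22.0%, 34.2% and 48.1% of its heterokaryon reads. Cldnd1, Cldn3 and Cldn12 had log2 fold changes from -0.01 to 0.41 and adjusted p-values of at least 0.839 with edgeR. Of the ZO scaffolds, Tjp1, which encodes ZO-1, had 26 reads in mESC and 70, 43 and 36 in heterokaryons, or 7.54 RPM and 28.8, 24.8 and 19.6 RPM. Every heterokaryon library was above mESC, but Tjp1 missed the threshold (1.65 ± 0.45; edgeR adjusted p = 0.0944), and it passed without the 24 h library (0.0465) and without the 72 h library (0.0342). Tjp3, the ZO-3 gene, had 17 reads in mESC and then 11, 14 and 23 (edgeR adjusted p = 0.719). None of 8 tested tight junction partners passed, and Jam2, the partner with most reads, had 2776 reads in mESC and 1296, 668 and 884 in heterokaryons (-0.83 ± 0.20; edgeR adjusted p = 0.0596), and it passed without the 24 h library (0.000495), without the 72 h library (0.0242) and with no filter (0.0255).

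Mouse integrins gave no call among 3 alpha and 2 beta chains tested, and Itgav and Itgb1 were highest at 24 h. Itgav (chromosome 2, plus strand, start at 83724397 in mm10) had 35 reads in mESC and 154, 26 and 34 in heterokaryons, or 10.2 RPM and 63.5, 15.0 and 18.5 RPM. It was 6.25-fold above mESC at 24 h (4.30 to 9.30), the 1 mouse member of 15 past the 4-fold limit at that time, or 6.67% against 1.69% of all genes, and 3.43-fold lower at 72 h than at 24 h (2.35 to 5.13). Over the 3 libraries Itgav did not pass (1.65 ± 0.66; edgeR adjusted p = 0.232), and without the 72 h library it did (0.0380). Without the 24 h library its log2 fold change was 0.73 (edgeR adjusted p = 0.473). Itgb1 had 68.5 RPM in mESC and 140.1, 96.5 and 88.2 RPM in heterokaryons (0.62 ± 0.30; edgeR adjusted p = 0.311). Mouse fibroblast markers summed to 22.3 RPM in mESC and 177.6, 104.6 and 84.4 RPM in heterokaryons. Vim gave the largest part, with 63 reads in mESC and 354, 98 and 76 in heterokaryons. It did not pass (edgeR adjusted p = 0.0914), and Col1a2, Col3a1 and Lum were at 0 in these 4 libraries. Col1a1 and Prrx1, the 2 of 3 tested that passed, had 29 and 42 of the reads of this list at 72 h. Their wrongly assigned bovine reads were estimated at 85.8% or more of their reads at each time. The part of these markers in the Itgav and Itgb1 values was not tested.

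The laminin receptor chain Itga6, a stem cell surface marker, had 39.8 RPM in mESC and 66.8, 61.2 and 52.3 RPM in heterokaryons, above mESC at each time (0.55 ± 0.31; edgeR adjusted p = 0.386). Itgb5 had 32.8 RPM and 29.3, 13.3 and 16.9 RPM, below mESC at each time (-0.75 ± 0.40; edgeR adjusted p = 0.368). Itga3 had 26 reads in mESC and 13, 16 and 19 in heterokaryons (edgeR adjusted p = 0.965). Mouse Itga5 stayed below the tested level with 6.67 RPM in mESC and 7.83, 8.09 and 7.62 RPM. None of 15 tested adhesion partners and none of 7 tested ligands passed in mouse transcripts. Those with most reads were Actn4, an alpha-actinin, at a log2 fold change of -0.52 ± 0.28 (edgeR adjusted p = 0.371), and Spp1, with 14136 reads in mESC and 7339, 4529 and 5875 in heterokaryons (-0.52 ± 0.15; edgeR adjusted p = 0.107). The list medians were 0.28 for the partners and 0.71 for the ligands, against -0.09 for all tested mouse genes. Each rests on few genes, some of which reached the tested level on 1 side alone, and is no result about its list.

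E-cadherin, EPCAM and CD9, the adhesion genes that mark stem cells, gave no call in mouse transcripts. Cdh1 had 66.4 RPM in mESC and 77.1, 84.3 and 70.3 RPM in heterokaryons (log2 fold change 0.17 ± 0.27; edgeR adjusted p = 0.785). Epcam had 202.5 RPM and 249.3, 161.2 and 220.6 RPM (0.01 ± 0.25; edgeR adjusted p = 0.982). Cd9 (chromosome 6, minus strand, lower coordinate 125460266 in mm10) had 1909 RPM and 1952, 1600 and 1562 RPM (-0.21 ± 0.17; edgeR adjusted p = 0.559). For these 3 genes the ratio to mESC lay between 1.26-fold lower for Epcam at 48 h (1.09 to 1.45) and 1.27-fold higher for Cdh1 at 48 h (1.02 to 1.57). A p that misses the threshold does not show that the levels were equal. Dsg2 had 15.96 RPM in mESC and 21.4, 22.5 and 19.6 RPM in heterokaryons (edgeR adjusted p = 0.671). Mouse Cdh2 had 7 reads in mESC and 11, 3 and 4 in heterokaryons and was not tested. None of 8 tested catenin and plaque genes passed, with Ctnna1, alpha-E-catenin, at 0.15 ± 0.23 (edgeR adjusted p = 0.780), nor did any of 9 tested tetraspanins and partners, with Cd81 at -0.03 ± 0.22 (edgeR adjusted p = 0.960). The cadherin exchange factor Snai1, the 1 of its list that could be tested, had 19 reads in mESC and 26, 6 and 3 in heterokaryons (edgeR adjusted p = 0.982).

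By size alone no mouse member was 4-fold lower than mESC at 24, 48 or 72 h, against 0.378%, 0.372% and 0.0851% of all genes, and none was 4-fold higher at 48 or 72 h, against 0.577% and 0.426%. Between 24 and 72 h none of 19 passed that limit either way, against 0.203% of all genes higher and 0.989% lower. Of 54 mouse members with 0 reads in mESC, 9 had reads in at least 1 heterokaryon library, or 16.7% against 18.8% of all such genes, and 2 had more than 3 reads in a library, Cdh6 and Itga9, or 3.7% against 6.63%. No member of 35 with more than 3 reads in mESC had 0 in all 3 heterokaryon libraries, against 0.839% of all genes.

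Levels of different mouse genes could be set side by side per length, as RPM per kilobase of transcript (RPKM), for 52 of the 53 mouse members with reads. In mESC the order on this scale was Cd9 at 1554, Epcam at 99.3, Cldn4 at 45.4, Cldn7 at 26.6, Cldnd1 at 24.6, Itgb1 at 17.95, Cdh1 at 15.0, Cldn6 at 11.5, Itgb5 at 10.3 and Itga6 at 9.40 RPKM. Each is 1 library, so neighbours in this order cannot be separated beyond counting error. In heterokaryons Cldn6 had 48.3, 27.1 and 45.7 RPKM, above Cdh1, which had 17.4, 19.0 and 15.9 RPKM, whereas in mESC it lay below Cdh1. Transcript lengths of the bovine build were not used here, so levels of bovine genes were not set against each other per length.

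Of the 67 member names found in both tables, 13 could be tested in both species. By sign alone, CLDN6 and DSG2 were above the control at all 3 times in both species, and ITGB5 was below it. Some of these differences were within counting error. Bovine CLDN6 at 72 h had a ratio to bFF of 1.07 (0.275 to 3.70). Mouse Dsg2 had ratios to mESC of 1.34 (0.901 to 1.998), 1.41 (0.912 to 2.17) and 1.23 (0.784 to 1.90). Mouse Itgb5 at 24 h had a ratio of 0.892 (0.654 to 1.21). CD9, CLDN1, ITGA6 and ITGAV had differences from the control of opposite sign in bovine and mouse reads, of which those of bovine CD9 and CLDN1 alone passed the test. The bovine log2 fold changes were 2.02 for CD9, -0.62 for ITGAV and -0.49 for ITGA6, against -0.21, 1.65 and 0.55 in mouse, and CLDN1 had 0 bovine reads in heterokaryons beside a mouse log2 fold change of 1.23. The differences between species were not tested, such signs were not counted over all genes, and the 2 controls differ in cell type as well as in species.

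**Figure D4:**
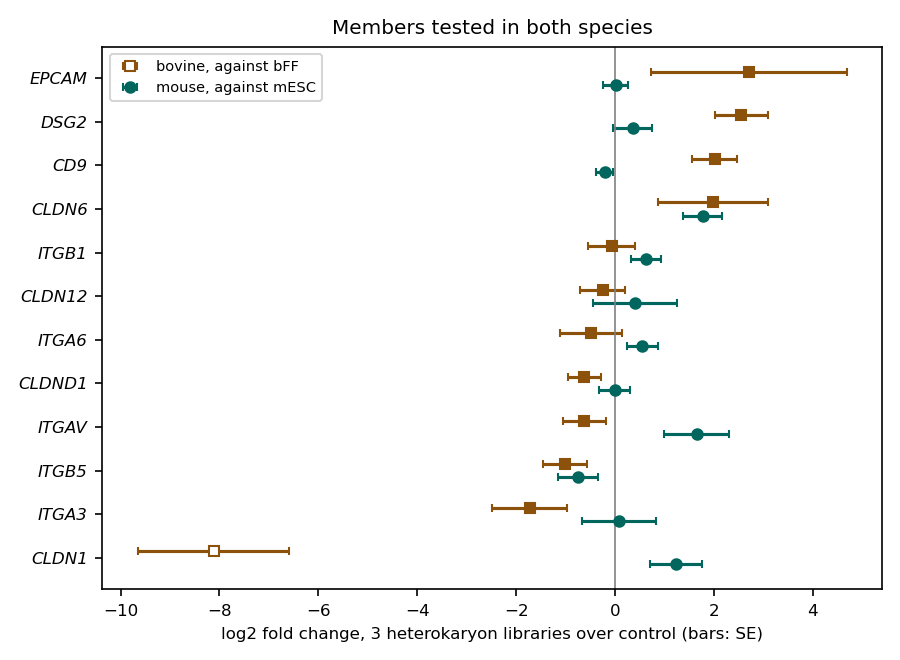
Log2 fold change of the 3 heterokaryon libraries over the control of the species for 12 members tested in both, with SE as bars, squares for bovine and circles for mouse. Bovine CD9 stands at 2.02 beside mouse Cd9 at -0.21, and the open square of bovine CLDN1 marks a gene with 0 reads in all heterokaryon libraries, whose fitted value depends on the prior count and is no estimate of size.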

How the data were processed

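The authors deposited whole read counts per RefSeq transcript, and the same values as RPM, in 1 bovine and 1 mouse table. Per the file headers the columns are reads and RPM, and RPM recomputed from the counts matched the deposited RPM. The builds bosTau8, GRCm38 and mm10 come from the submitters' processing notes. How reads were aligned, counted and assigned to a species, and whether strand was used, is not stated in the sources at hand. Counts were summed by gene name, since 34 mouse members and 1 bovine member have several rows. Names turned into spreadsheet dates were restored for 23 of 23 bovine and 57 of 60 mouse rows, and 1 mouse row of totals without a name was left out. Depth is given with the results. Starts are counted from 1.

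Samples were grouped by their titles. With edgeR 4.0.16 in R 4.3.3 the 3 fused libraries were set against the 1 control of each species, after TMM scaling over all genes and a filter of 10 CPM in 1 or more of the 4 libraries, at adjusted p under 0.05. By time, log2(CPM + 1) was compared by size alone, at 10 CPM or more in 1 of the libraries. Ratio intervals are exact conditional binomial and level intervals exact Poisson, at 95%. Wrong assignment was estimated from the reads that the other species' control has for a gene, times the ratio of that species' reads in the heterokaryon library to those in its control. It was 0 for 18 of 23 tested bovine and 14 of 19 tested mouse members. Alternatives were DESeq2 1.42.0, other scalings, filters, pseudocounts and fold limits, subtraction of wrongly assigned reads and leaving out each heterokaryon library. Mouse lengths came from GENCODE vM21. The fits were checked on simulated counts. Other steps ran in Python 3.11.15 (numpy 2.4.6, pandas 2.3.3, matplotlib 3.10.9, scipy 1.17.1).

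The members, the partner and marker lists and the rule for named genes were chosen with earlier results of these data known. Named are the members that passed, the 4 highest of each family by CPM and those at least 4-fold different between 24 and 72 h. Of the partner lists, the genes that passed are named, or the highest where none did. Members named for a few reads, such as CDH1, CLDN7 and mouse Itga5, were chosen after their values were seen. 1 tested member and 1 marker are not reported here by name, though they are in the counts and sums.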

Additional observations from a re-analysis of the deposited data

Results flagged for a closer look

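Of the 13 members tested in both species, 4 had differences of 1 sign at all 3 times in the bovine reads and of the other sign in the mouse reads. How many of all genes tested in both species did the same was not counted, so 4 of 13 is no result about the group. The differences are relative to the control of each species on the log2(CPM + 1) scale. Of these 8 differences, those of bovine CD9 and CLDN1 alone passed the edgeR test. The log2 fold change of CD9 was 2.02 in bovine and -0.206 in mouse transcripts. For ITGAV it was -0.6235 in bovine and 1.653 in mouse transcripts, and for ITGA6 it was -0.4851 and 0.5548. CLDN1 had a fitted value of -8.121 in bovine transcripts, no measure of size with 0 reads in all heterokaryon libraries, and 1.234 in mouse transcripts, where wrongly assigned bovine reads could amount to 22.0% to 48.1%. The difference between species was not tested for any of the 4. By RPM, without TMM scaling, the mouse Cd9 level at 24 h, 1952 RPM, lies above the 1909 RPM of mESC, so the opposite course of CD9 then holds at 48 and 72 h alone.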

How the results depend on the processing

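Bovine CD9, DSG2, ITGA5, CDH6 and CLDN1 kept their call under every alternative in which they were tested, with edgeR or DESeq2 adjusted p-values of at most 0.0358, 0.0438, 0.0266, 0.00405 and 0.0137. CDH6 and CLDN1 were not tested at 50 CPM. CDH13 lost its call with DESeq2 (0.203), no filter (0.0561), 50 CPM (0.0700), subtraction of wrongly assigned reads (0.0515), and without the 48 h (0.140) or 72 h library (0.0600). The number of bovine members called lower was thus 0 at 50 CPM. Cldn6 lost its call at 50 CPM (0.0808) and with subtraction (0.0524), which left 0 mouse members, and 1 to 3 were called without 1 library, 2 without 24 h and 3 without 72 h. The cause was not tested. By time, 7 bovine members passed 4-fold at 24 h, 3 at 48 h, 3 at 72 h and 3 between 24 and 72 h. With a limit of 2-fold these were 16 of 22, 8 of 19, 9 of 18 and 7 of 19, or 72.7%, 42.1%, 50.0% and 36.8%. Beside them stand 28.2%, 26.5%, 28.1% and 16.7% of all genes. At 50 CPM the members past 4-fold were 2, 0, 0 and 0, where fewer genes were tested. In mouse 1 member passed at 24 h, and 2 did with a pseudocount of 0.5 or with library totals. With 2-fold, 4 of 15, 4 of 16, 3 of 19 and 4 of 19 mouse members passed in the same comparisons, beside 1356 of 8466 genes in the first and 12.1%, 8.35% and 9.78% of all genes in the others. In both species, members that entered through 1 side alone had a gap built into their choice. The 2-fold shares are therefore no support for a change of the group.

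Log2 fold changes that changed sign were all uncalled. Without 1 library, ITGB1 ranged from -0.636 to 0.226, CTNNB1 from -0.0137 to 0.167, Cldn4 from -0.143 to 0.191, Cldnd1 from -0.0353 to 0.0516, Epcam from -0.0774 to 0.166, Itga3 from -0.00872 to 0.383, Cd81 from -0.173 to 0.0786 and Snai1 from 0.157 to 0.357. CTNNB1 was -0.0542 with library totals. Cldnd1 was 0.0942 with DESeq2, 0.0351 with library totals, 0.0456 with RLE scaling and 0.0153 with subtraction. Cd81 was 0.0744, 0.0163 and 0.0256 with DESeq2, library totals and RLE scaling, and Snai1 was 0.0154 with DESeq2.

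Over all genes, without 24 h edgeR called 830 bovine genes higher and 919 lower and 222 and 258 mouse genes, against 322, 352, 51 and 36 with all libraries. Without 48 h the lower calls were 223 and 16, and without 72 h the mouse calls were 181 and 233. DESeq2 called 184 bovine genes lower and 90 mouse genes higher. Library totals in place of TMM moved the median bovine log2 fold change from -0.03 to -0.14. No paired analysis was possible because each group has 1 library and the labels carry no replicate numbers. The number of reads limits members under 10 CPM, which could not be tested.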
